A study of Homo sapiens with 6 samples.

Results

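The SR and hnRNP splicing factors made up 36 of the 30960 genes in the deposited table. They were taken by name alone: 12 genes whose symbol is SRSF followed by digits, and 24 whose symbol is HNRNP followed by letters or digits, without the symbols that end in P and digits, the form used for pseudogenes. The RNA came from HEK293, a human embryonic kidney cell line, harvested 48 h after Lipofectamine transfection with 158 ng of plasmid per square centimetre. In 3 libraries (PKI A, B and C) the plasmid encoded GFP fused to PKI1-24, and in the other 3 (inPKI A, B and C) GFP fused to inPKI1-24, the control of the study. Both groups were therefore transfected and both expressed a GFP fusion, and the labels describe no sorting of transfected cells. Nothing in the labels ties a library to a culture of its own, so a p-value here covers only how far these libraries differ, possibly for technical reasons.

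SR proteins carry RNA-recognition motifs and a tail rich in arginine and serine, and most of them bind exonic enhancers and help the splicing machinery to recognise exons. The hnRNP proteins coat nascent transcripts, and many of them bind silencers and oppose exon inclusion, so the balance between the families is a classic determinant of alternative splicing. Many genes of both families limit their own output by including a poison exon or retaining an intron, which sends the transcript to nonsense-mediated decay or keeps it in the nucleus. PKI blocks PKA, the kinase switched on by cAMP. PKA is known to act on gene transcription through the factor CREB, and on splicing factors directly by phosphorylation, as in PTBP1. Counts per gene measure the amount of RNA from each gene and see neither the phosphorylation of a protein nor which exons a transcript holds.

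Levels are given in CPM, counts scaled to library size by the authors. The libraries held 17244715 to 23589438 recovered reads, and 1 read was worth 0.0333 to 0.0437 CPM. PKIA, the gene for the alpha form of PKI, separated the groups by their labels, at 8.65 to 11.3 in inPKI against 42.3 to 46.1 CPM in PKI, where reads of the plasmid and of the cells' own gene cannot be told apart. Of 8 genes listed for HEK293 cells, 6 reached 1 CPM in all libraries, led by VIM, while PAX8 was at or near 0. Markers of leukocytes summed to at most 1.92 CPM and those of liver to at most 0.351 CPM. The 5 keratinocyte markers summed to 21.5 to 59.6 in inPKI against 21.7 to 27.0 CPM in PKI, and the 6 fibroblast markers to 18.9 to 21.0 and 19.4 to 22.7 CPM; their part in the values below was not tested. In RNA of a whole culture, fewer cells of a kind and less RNA per cell cannot be told apart.

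CREB binds the cAMP response element TGACGTCA and, more weakly, its core TGACG, so the promoters of the splicing factors were read for both, on either strand. The RefSeq promoter table (GRCh38.p14, 250 bases before to 50 bases after each start) held 47 promoters for 33 of the 36 genes. HNRNPA1, SRSF2 and HNRNPCL3 had no entry. The full element was in 0 of the 33 genes, against 2.25% of all 27305 genes in the table and 3.95% of the 9986 that were also tested for expression. The core, which the full one contains, was in 18 of the 33 (5 of 11 SRSF and 13 of 22 HNRNP genes), against 28.4% of all genes and 41.1% of those tested. A match describes letters only and is no evidence of binding. The 6 windows below belong to genes whose values are given in full further on. HNRNPA0, HNRNPAB, HNRNPL and HNRNPLL, also given by library, hold the core too, but their windows are not printed. The core is in capitals, read 5′ to 3′ on the gene's own strand, so that CGTCA is the element on the other strand.
SRSF1, chr17:58007362-58007426, minus strand: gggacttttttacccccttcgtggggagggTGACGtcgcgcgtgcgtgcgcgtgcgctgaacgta
SRSF3, chr6:36594239-36594303, plus strand: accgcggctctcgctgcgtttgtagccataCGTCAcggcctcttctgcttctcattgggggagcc
SRSF11, chr1:70221305-70221369, plus strand: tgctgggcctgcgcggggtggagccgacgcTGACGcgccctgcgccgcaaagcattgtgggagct
HNRNPA2B1, chr7:26200780-26200844, minus strand: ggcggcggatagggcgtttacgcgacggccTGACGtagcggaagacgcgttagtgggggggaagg
HNRNPD, chr4:82373987-82374051, minus strand: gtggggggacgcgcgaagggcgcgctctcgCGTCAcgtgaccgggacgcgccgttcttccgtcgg
HNRNPH2, chrX:101408170-101408234, plus strand: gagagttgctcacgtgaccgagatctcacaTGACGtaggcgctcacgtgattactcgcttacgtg

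Counted from the start, the first base of the core lies at -150 in SRSF1, -93 in SRSF3, -45 in SRSF11, -68 in HNRNPA2B1, -30 in HNRNPD and -22 in HNRNPH2. HNRNPH2 holds the core once more, at -222, and a further promoter of SRSF11 holds it at -117 and -1.

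Were any of these genes at another level with PKI than with the control? No SRSF or HNRNP gene passed the test. Of the 36 genes 34 were tested, having reached 1 CPM in 3 or more libraries, all but HNRNPCL1 and HNRNPCL2, and 0 passed an adjusted p of 0.05 in limma, with a smallest value of 0.328. Over all 14275 genes tested the same rule called 18, or 0.126%. In edgeR and in DESeq2 on the recovered reads 0 of the 34 passed as well, against 0.0771% and 1.77% of all genes. DESeq2 gave some genes no adjusted p, SRSF12 among them, and these count here as not passing. Before adjustment 1 of the 34 had a limma p under 0.05, against 13.7% of all genes tested: 0 higher (background 7.53%) and 1 lower, SRSF8 (background 6.16%).

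In limma the intervals around these changes were narrow. On the log2(CPM + 1) scale the change from inPKI to PKI lay between -0.14 (SRSF8) and 0.14 (SRSF12), with a median standard error of 0.064. The 95% interval lay inside a 1.25-fold change in either direction for 33 of the 34 genes, the exception being the sparsely read HNRNPCL3, and inside a 1.2-fold change for 29. The share inside 1.25-fold over all genes tested was 65.9%. These widths are those of limma. In the authors' deposited results the standard error was larger for most of these genes, as for HNRNPAB (0.23, against 0.064 in limma) and SRSF7 (0.18, against 0.054). It was smaller only for HNRNPK (0.060, against 0.072) and HNRNPUL1 (0.057, against 0.062). In simulated counts for this comparison over 14275 genes, 36% of the genes changed 1.25-fold and 88% of those changed 1.5-fold were recovered. Every simulated gene had the same dispersion (spread beyond counting), and the changed genes were drawn at random from all tested. For such a gene a change of the first size would often have been missed by the adjusted test. Recovery at the levels of these 34 genes was not simulated separately. The forest of intervals shows all 34.

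**Figure D1:**
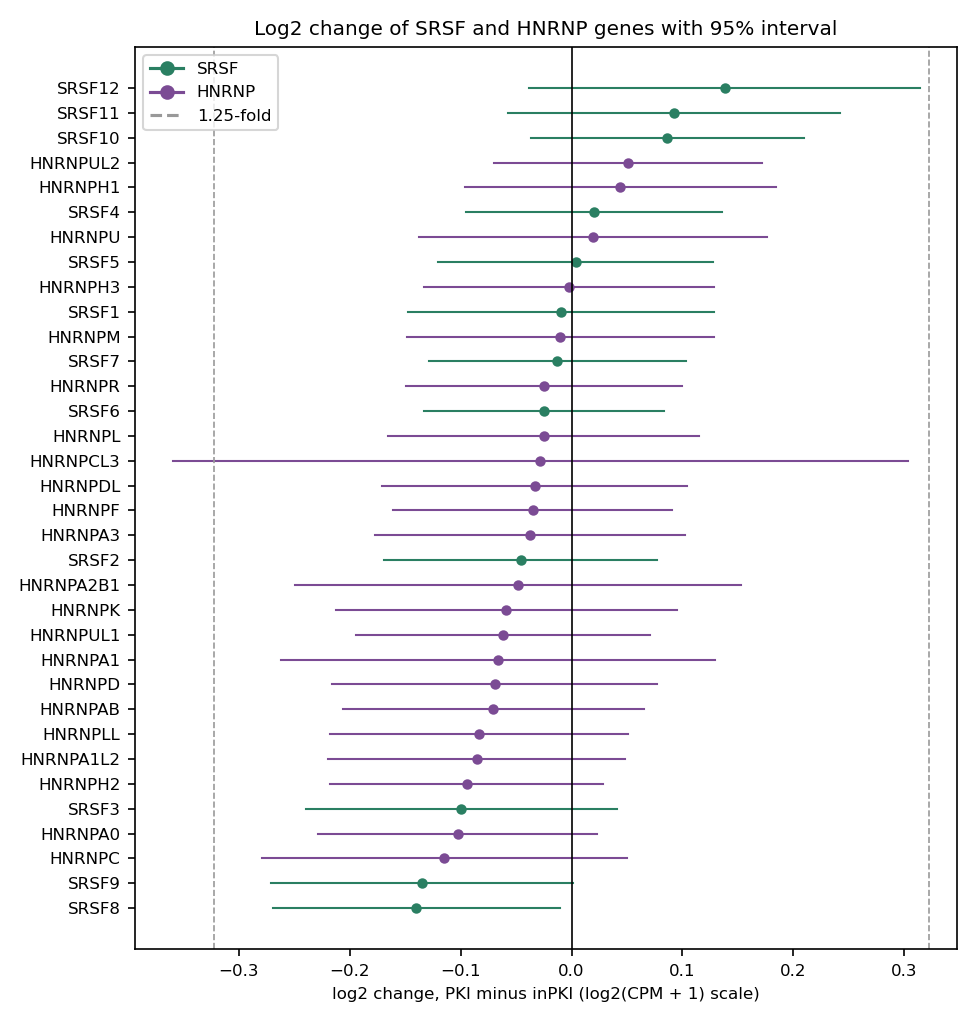
Change from inPKI to PKI in log2(CPM + 1) units (points), with its 95% interval from limma (lines), for the 34 tested genes, SRSF in green and HNRNP in purple; dashed lines mark a 1.25-fold change. The interval of SRSF8 alone lies wholly on one side of 0, and that of HNRNPCL3 alone crosses a dashed line.

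Among the SRSF genes, SRSF8, which encodes a close relative of SRSF2, lay lowest relative to the control. It measured 40.7, 44.2 and 40.2 in the inPKI libraries A, B and C against 38.4, 38.7 and 36.1 CPM in PKI A, B and C. All 3 PKI libraries lay below all 3 inPKI libraries. The log2 change was -0.14 ± 0.061 (SE), with an unadjusted p of 0.0356 and an adjusted p of 0.328 in limma, and the alternatives spanned 0.245 to 0.713. SRSF8 (ENSG00000263465.4, chr11:95067197-95071224 in GRCh38) shares sequence with SRSF2, so the counting could move reads between them. SRSF3, the smallest SR protein and an adaptor for mRNA export, was the other gene with PKI below inPKI throughout. Its inPKI libraries held 362, 370 and 362 CPM and its PKI libraries 356, 359 and 308 CPM. The distance rested on PKI C, while PKI A and B lay just under the inPKI range, and the log2 change of -0.099 ± 0.066 (SE) had an adjusted p of 0.517. SRSF12, a repressor-type member of low abundance, was the only tested gene with PKI above inPKI throughout. It measured 11.8, 11.5 and 11.4 in inPKI against 13.9, 11.9 and 12.7 CPM in PKI. The log2 change was 0.14 ± 0.082 (SE, adjusted p = 0.472). So the groups did not overlap in 2 lower genes, where 8.88% of all genes tested did so, and in 1 higher gene, where 10.9% did.

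SRSF9, a short SR protein related to SRSF1, measured 187, 194 and 170 in inPKI against 158, 179 and 166 CPM in PKI. PKI A and C lay below every inPKI library and PKI B inside their range, so the groups overlapped, and the log2 change was -0.13 ± 0.064 (SE, adjusted p = 0.369). On the opposite strand SRSF9 overlaps GATC. Opposed to it stood SRSF10 and SRSF11. SRSF10, a splicing repressor once it is dephosphorylated after heat shock, held 163, 158 and 153 in inPKI against 156, 172 and 175 CPM in PKI. PKI B and C were above the inPKI range and PKI A inside it (log2 change 0.087 ± 0.058, SE, adjusted p = 0.520). SRSF11, which interacts with the factors that define the 3′ splice site, held 232, 223 and 238 in inPKI against 228, 235 and 278 CPM in PKI. Here PKI C alone stood above the inPKI range (log2 change 0.092 ± 0.070, SE, adjusted p = 0.577).

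The most abundant SR genes per length, at the median transcript length, were SRSF1, SRSF2 and SRSF9. SRSF1, the prototype of the family, measured 478, 471 and 437 in inPKI against 439, 486 and 451 CPM in PKI. The libraries of the groups were interleaved, and the log2 change was -0.0092 ± 0.065 (SE), with a 95% interval of -0.15 to 0.13. SRSF2, which marks nuclear speckles and does not shuttle to the cytoplasm as SRSF1 does, measured 359, 338 and 340 in inPKI against 343, 339 and 321 CPM in PKI, with a log2 change of -0.046 ± 0.058 (SE). SRSF6 measured 179, 174 and 179 in inPKI against 171, 179 and 174 CPM in PKI, with the smallest standard error among the 34 genes (log2 change -0.025 ± 0.051). The remaining SRSF genes were SRSF4 and SRSF5, which are close relatives of SRSF6, and SRSF7, an export adaptor like SRSF3. SRSF4 had means of 183 ± 7.94 and 185 ± 4.80 CPM (SD, n = 3) in inPKI and PKI, SRSF5 of 162 ± 4.53 and 162 ± 10.7 CPM, and SRSF7 of 223 ± 5.81 and 221 ± 8.61 CPM. Of the 12 SRSF genes 5 had a log2 change above 0 and 7 below, and the median was -0.011, beside -0.0074 over all genes tested.

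Among the HNRNP genes, those of highest level per length, at the median transcript length, were HNRNPA1, HNRNPC and HNRNPA2B1. HNRNPA1, the best known splicing silencer protein and a shuttling one, measured 1995, 2069 and 1883 in inPKI against 1876, 2026 and 1782 CPM in PKI. PKI A and C lay below all inPKI libraries and PKI B between them, and the log2 change was -0.066 ± 0.092 (SE) with a 95% interval of -0.26 to 0.13. HNRNPA2B1, its closest partner, measured 1879, 1914 and 1652 in inPKI against 1655, 1886 and 1722 CPM in PKI, so that all PKI libraries fell inside the inPKI range (log2 change -0.048 ± 0.094, SE). HNRNPC binds uridine tracts and stays in the nucleus, where it competes with U2AF2. It measured 1078, 1116 and 1039 in inPKI against 1008, 1056 and 925 CPM in PKI. PKI C was the lowest library and PKI B lay within the inPKI range. The log2 change of -0.11 ± 0.077 (SE) was the lowest of the HNRNP genes, with an adjusted p of 0.525 in limma and of 0.144 in DESeq2, the smallest value that any of the 34 genes reached in any alternative.

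HNRNPA0, a relative of HNRNPA1 made from a gene without introns, held 226, 225 and 218 in inPKI against 213, 219 and 192 CPM in PKI. PKI C stood apart below and PKI B overlapped inPKI C (log2 change -0.10 ± 0.059, SE, adjusted p = 0.454). With the length trend removed the change was -0.23, and without PKI C the change was -0.047. HNRNPH2, which binds runs of guanine, held 157, 153 and 146 in inPKI against 140, 152 and 136 CPM in PKI, where PKI A and C were below the inPKI range (log2 change -0.095 ± 0.058, SE). A read-through gene with RPL36A shares its strand. HNRNPA1L2 is a copy of HNRNPA1 without introns, so the counting could move reads between them. It held 40.3, 42.2 and 38.4 in inPKI against 38.0, 35.7 and 40.1 CPM in PKI, with PKI C inside the inPKI range and the others just below it (log2 change -0.086 ± 0.063, SE). HNRNPLL, which regulates CD45 splicing in lymphocytes, held 32.6, 31.6 and 33.4 in inPKI against 32.5, 30.6 and 28.9 CPM in PKI, with PKI A inside the inPKI range (log2 change -0.084 ± 0.063, SE).

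HNRNPD, also known as AUF1, binds AU-rich elements of unstable mRNAs. It held 565, 568 and 506 in inPKI against 514, 550 and 498 CPM in PKI, and PKI A and B fell inside the inPKI range (log2 change -0.069 ± 0.069, SE). HNRNPAB, of the same subfamily, held 441, 439 and 404 in inPKI against 397, 432 and 394 CPM in PKI, with PKI B inside the inPKI range (log2 change -0.070 ± 0.064, SE). HNRNPUL1, a relative of the scaffold attachment factor HNRNPU, held 417, 416 and 391 in inPKI against 403, 403 and 367 CPM in PKI, where only PKI C left the inPKI range (log2 change -0.062 ± 0.062, SE). In each of HNRNPD, HNRNPAB and HNRNPUL1, inPKI C was the lowest control library, by at least as much as the groups' means differed.

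The other HNRNP genes with at least 5 CPM had log2 changes between -0.059 (HNRNPK, which binds cytidine-rich RNA) and 0.051 (HNRNPUL2), and their groups overlapped in each case. HNRNPK measured 778 ± 10.7 in inPKI against 748 ± 55.3 CPM in PKI (SD, n = 3), and its spread within PKI exceeded the difference of the means. HNRNPL, which binds CA repeats, held 363, 370 and 367 in inPKI against 378, 378 and 326 CPM in PKI. In both PKI C was the lowest library. HNRNPU measured 1078 ± 40.9 and 1092 ± 31.1 CPM, HNRNPM 445 ± 17.5 and 442 ± 27.7 CPM, and HNRNPR 363 ± 12.9 and 357 ± 12.7 CPM. Of the guanine-run binders, HNRNPF measured 325 ± 14.4 and 317 ± 12.1 CPM, HNRNPH1 621 ± 11.4 and 641 ± 34.0 CPM, and HNRNPH3 251 ± 15.9 and 251 ± 10.8 CPM. HNRNPA3 and HNRNPDL, relatives of HNRNPA1 and HNRNPD, measured 620 ± 29.1 and 604 ± 20.5 CPM, and 384 ± 17.3 and 376 ± 24.2 CPM. HNRNPUL2 had a log2 change of 0.051 ± 0.057 (SE), and shares sequence with the read-through gene HNRNPUL2-BSCL2, which the rule leaves out (81.2 ± 4.85 and 78.4 ± 2.70 CPM). The plot of values by library places every gene beside its control mean.

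**Figure D2:**
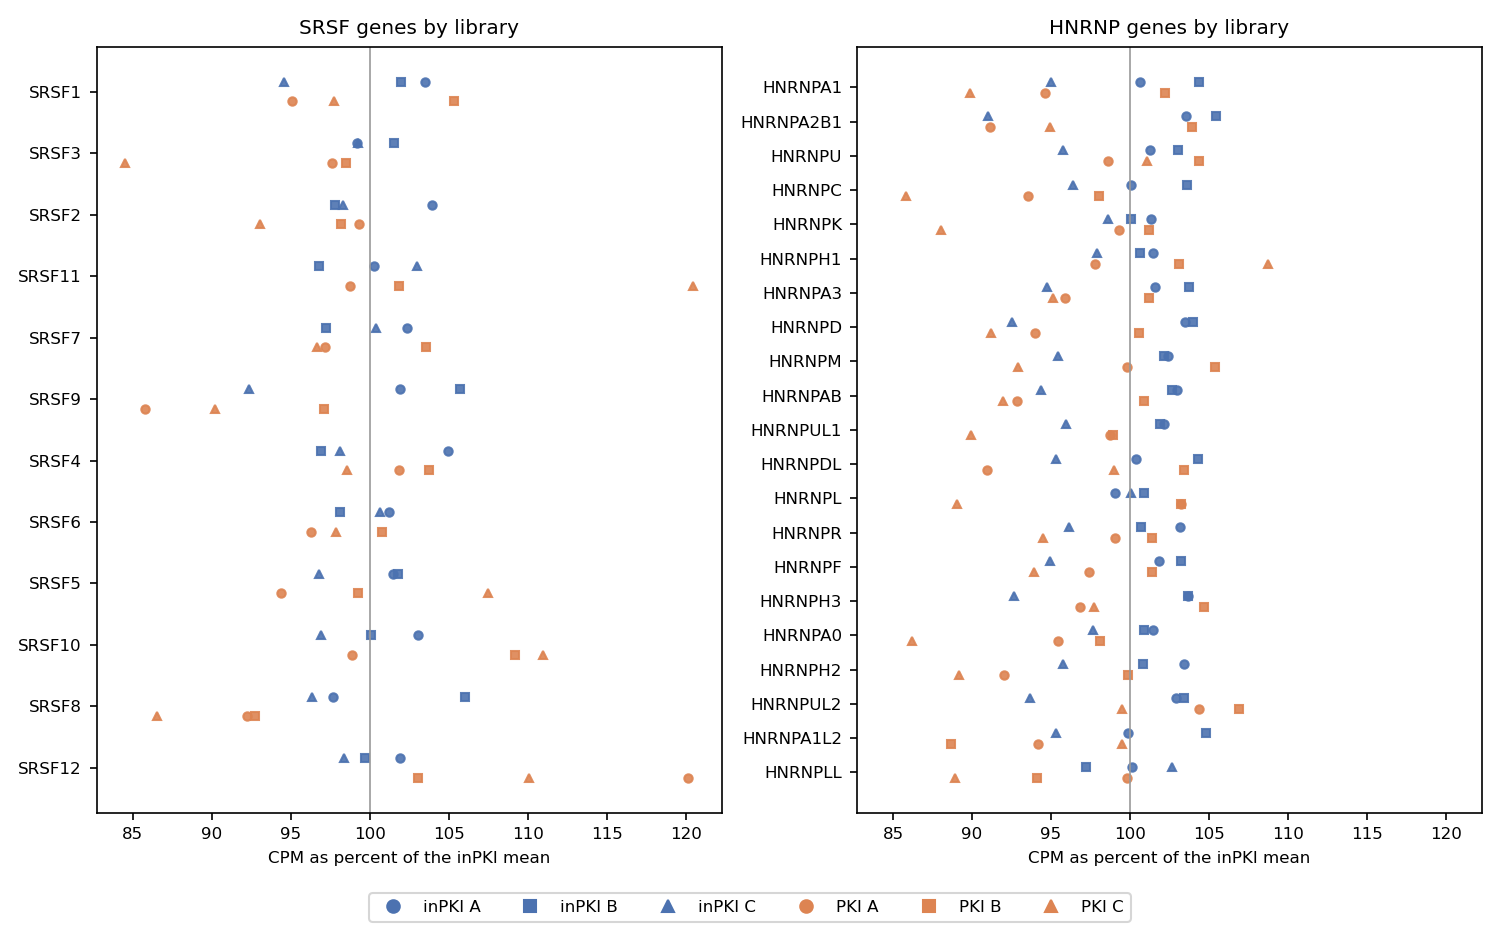
CPM of each library as a percent of the gene's inPKI mean for the 12 SRSF genes and the 21 HNRNP genes with at least 5 CPM, ordered by mean CPM; blue marks are inPKI and orange marks PKI, with circles, squares and triangles for libraries A, B and C. The marks of the groups overlap in all genes but SRSF3, SRSF8 and SRSF12, and the orange triangles of PKI C lie farthest out in many rows, upward in SRSF11 and HNRNPH1 and downward in SRSF3 and HNRNPC.

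The copies of HNRNPC were nearly silent. HNRNPCL3 had 1.42 ± 0.255 in inPKI against 1.38 ± 0.286 CPM in PKI (SD, n = 3), with a log2 change of -0.028 ± 0.16 (SE). HNRNPCL1 had 0.312, 1.31 and 0.745 in inPKI against 0.554, 0.433 and 0.831 CPM in PKI, with no order between the groups. HNRNPCL2 had 0 reads in each inPKI library and 1, 2 and 1 reads in PKI A, B and C, which is below 3 counts per library and allows no fold. Reads of such copies may belong to HNRNPC.

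Most HNRNP genes sat slightly below the control. Of the 22 tested, 19 had a log2 change below 0 and 3 above (HNRNPH1, HNRNPU and HNRNPUL2), and the median was -0.043, where 52.6% of all genes tested were below 0 and their median was -0.0074. Adding the SRSF genes gave 26 of 34 below 0. The shift was smaller than the spread among libraries: the medians of the HNRNP genes in single libraries, as log2 differences from the inPKI mean, were 0.022, 0.045 and -0.064 in inPKI A, B and C, followed by -0.040, 0.019 and -0.097 for the PKI libraries in that order. The control library inPKI C thus lay below PKI A and PKI B, and the groups overlapped. Over all 14275 genes tested the same medians were 0.0061, -0.0016 and -0.0031 in inPKI A, B and C. In PKI A, B and C they were 0.0071, 0.025 and -0.050, so PKI C was lowest over all genes as well. Without PKI C 14 of the 22 were below 0, against 43.8% of all genes tested, and the median was -0.022. Without inPKI B the median was -0.019 and 16 were below 0. It moved the other way without inPKI C (-0.070) and without PKI B (-0.070), with 19 below 0 in each case.

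PKI C was the library that most often held the extreme value. It was the lowest of the 6 libraries in 17 of the 34 genes (4 SRSF and 13 HNRNP), which is to be read beside 39.4% of all 14275 genes tested. It was the highest in 4, namely SRSF5, SRSF10, SRSF11 and HNRNPH1, beside 19.2% of all genes. It was also the library with the fewest recovered reads. The median coefficient of variation over the 34 genes was 3.83% in inPKI and 5.77% in PKI. Counting error alone gives 1.08% for the inPKI reads. The coefficient was larger in PKI for 24 genes, and its values over all genes tested were not computed. The part of depth or of this library in the results was not tested beyond leaving it out.

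Summed over each family, the levels of the groups differed by less than the spread among libraries. The 12 SRSF genes summed to 2543 ± 53.9 in inPKI against 2511 ± 63.4 CPM in PKI, and the 24 HNRNP genes to 12031 ± 519 and 11669 ± 541 CPM (SD, n = 3). As a share of the counted reads this was 0.314% to 0.331% for SRSF and 1.47% to 1.59% for HNRNP over the 6 libraries. The difference of the means was smaller than the SD of either group in both families. The sums follow the longest and most abundant genes and do not count molecules.

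Levels were set between genes as CPM per kb of transcript, with the median length of the GENCODE 29 basic transcripts. In inPKI, HNRNPA1 led with 1173 ± 55.3 CPM per kb, followed by HNRNPC (674 ± 24.3) and HNRNPA2B1 (516 ± 40.5; SD, n = 3). At the median length these lay apart from each other by more than their spread among libraries. HNRNPD (328 ± 21.2), SRSF1 (326 ± 15.6) and HNRNPA3 (300 ± 14.1) came next, and the first pair did not differ beyond the spread. Of the 10 highest genes 9 were HNRNP genes, and SRSF2, the next SR gene, had 179 ± 6.11 CPM per kb. SRSF8 (10.4 ± 0.544) and SRSF12 (3.21 ± 0.0569) closed the SR family. The order was the same in PKI for the highest 3, at 1121 ± 72.8, 623 ± 41.6 and 499 ± 33.8 CPM per kb. The length used bears on which genes lie highest and on their order. With the longest basic transcript HNRNPA2B1 had 495 CPM per kb, above HNRNPA1 (481) and HNRNPK (265), while HNRNPC had 239 and SRSF1 148. With the shortest, HNRNPH1 led with 5047, owing to a transcript of 123 bases. HNRNPA1 then had 1532, HNRNPA2B1 1061, HNRNPC 932, HNRNPUL1 904 and SRSF1 813.

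**Figure D3:**
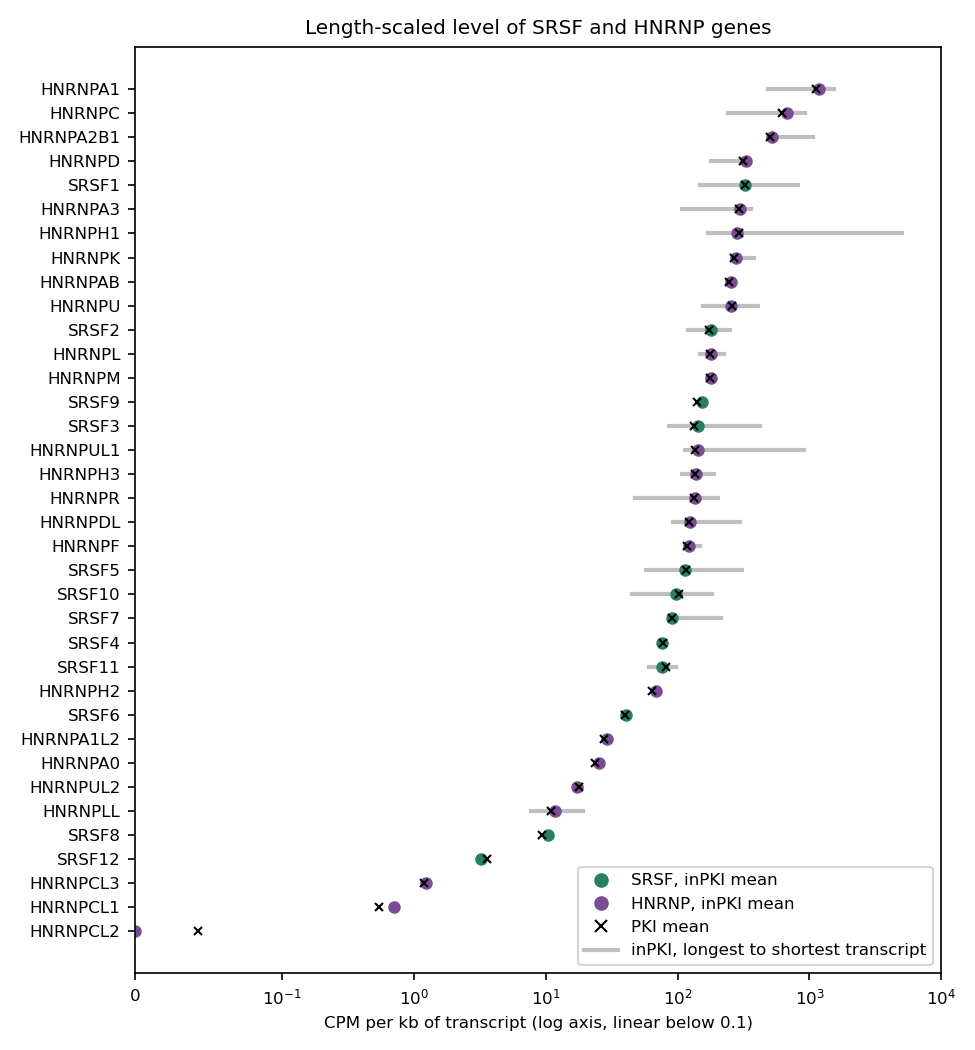
Mean CPM per kb of transcript in inPKI (circles, SRSF green, HNRNP purple) and in PKI (crosses) for all 36 genes, on a log axis that is linear below 0.1; grey lines run from the value with the gene's longest basic transcript to that with its shortest. The circles, at the median length, lie highest for HNRNPA1, HNRNPC and HNRNPA2B1, while the grey line of HNRNPH1 reaches farthest. The crosses lie on or near the circles except in HNRNPCL1 and HNRNPCL2.

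The rest of the splicing machinery was read from 6 further lists, and again 0 genes passed in limma. Of 12 tested SR kinase and nuclear import receptor genes 11 had a log2 change above 0, with a median of 0.049. Over all genes tested 6771 of 14275 lay above 0, to be set beside the count of signs in each list. The smallest p belonged to DYRK1A, a nuclear kinase of splicing factors, at 34.7 ± 1.06 in inPKI against 38.7 ± 0.657 CPM in PKI (SD, n = 3, adjusted p = 0.268), with all PKI libraries above all inPKI libraries. PRPF4B, a kinase of the spliceosome, measured 113 ± 3.86 and 124 ± 11.5 CPM (adjusted p = 0.382). Of 29 SR-related genes 17 lay above 0 (median 0.0075), where ARGLU1 had a log2 change of 0.18 ± 0.069 and RSRC1 one of -0.17 ± 0.066 (SE). DESeq2 called a pair of them higher, the speckle scaffold genes SRRM2 (adjusted p = 0.0440) and SON (0.0243), where it called 1.77% of all genes, both chosen after their values were seen.

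The hnRNP proteins with other gene symbols resembled the HNRNP genes in sign. Of 18 tested 14 were below 0, with a median of -0.040 (-0.068 without PKI B, -0.021 without inPKI A and 0.00135 without PKI C) and 0 at an unadjusted p below 0.05. The smallest p belonged to PCBP4 (log2 change 0.22 ± 0.11, SE) and GRSF1 (-0.11 ± 0.057). In the core spliceosome list 39 of 49 were below 0, where 52.6% of all genes were, and the median of -0.052 shrank to -0.013 without PKI C. An unadjusted p below 0.05 was reached by 5 of the 49, all lower, against 13.7% of all genes tested and 6.16% on the lower side. SNRPG, a ring protein of the spliceosomal snRNPs, measured 92.2, 88.5 and 78.3 in inPKI against 68.4, 76.2 and 67.0 CPM in PKI, with no overlap between the groups. Its log2 change was -0.29 ± 0.068 (SE) with an adjusted p of 0.125 in limma. It passed in DESeq2 (0.00332), with the replicate letter as a block, with sample weights and without PKI B, with alternatives spanning 0.00332 to 0.485. The labels do not say whether libraries of the same letter belong together. SNRPB2, of the U2 snRNP, held 61.9, 61.0 and 54.6 in inPKI against 53.5, 53.7 and 47.3 CPM in PKI, again without overlap (adjusted p = 0.226). DESeq2 also called SNRPD2 lower (adjusted p = 0.0243), a gene chosen after its values were seen.

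Among 22 other splicing regulators 15 were above 0, with a median of 0.062 (0.041 once the length trend was removed, 0.033 with GC as well). CELF1, which binds GU-rich RNA, measured 107 ± 3.59 in inPKI against 123 ± 6.02 CPM in PKI (SD, n = 3), with an adjusted p of 0.170 in limma and 0.0267 in DESeq2 (0.0267 to 0.545 over the alternatives). RBM5 held 86.5, 81.7 and 88.6 in inPKI against 89.8, 91.0 and 104 CPM in PKI, without overlap (adjusted p = 0.323). Of 15 genes of nonsense-mediated decay and the exon junction complex, the pathway that removes poison-exon transcripts, 10 were below 0 (median -0.021). SMG1, the kinase that phosphorylates UPF1, held 157, 145 and 153 in inPKI against 195, 180 and 251 CPM in PKI, with no overlap and with PKI C highest. Its log2 change of 0.45 ± 0.091 (SE) had an adjusted p of 0.0878, with alternatives spanning 0.00675 to 0.442, and it passed without PKI B, without PKI C and in 3 others. SMG1 has pseudogene copies with shared sequence, so its reads are uncertain. UPF3B measured 78.4 ± 3.69 in inPKI against 69.7 ± 2.13 CPM in PKI (SD, n = 3), without overlap (adjusted p = 0.221).

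**Figure D4:**
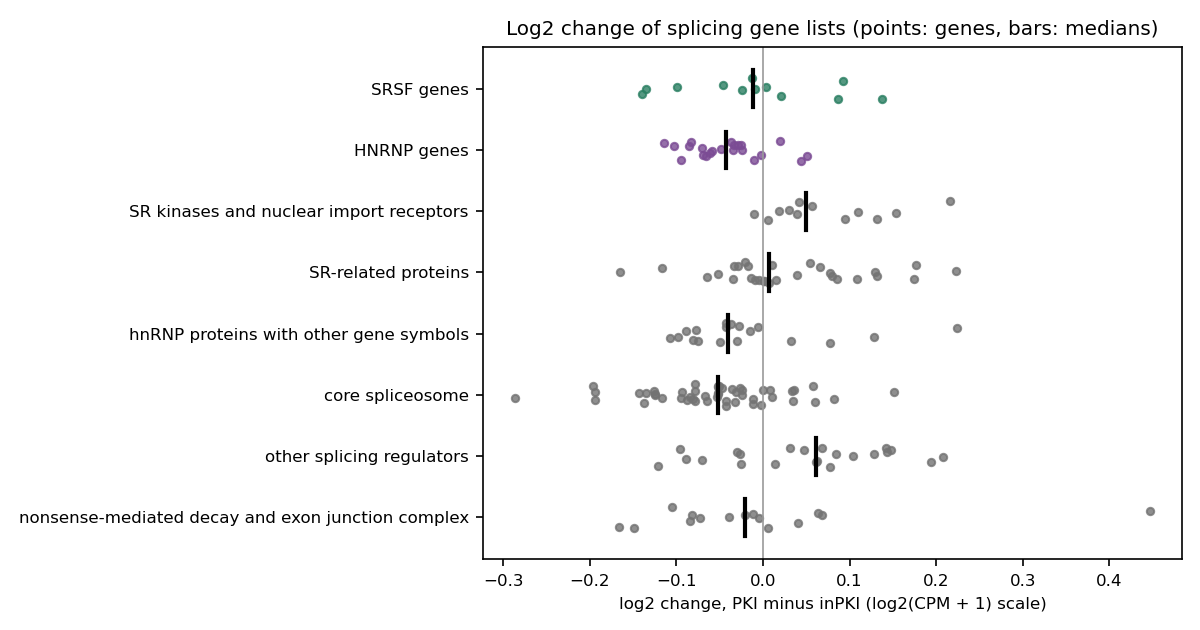
Change from inPKI to PKI in log2(CPM + 1) units of each tested gene (points) in the SRSF genes, the HNRNP genes and 6 further lists of splicing genes, with the median of each list as a black bar and points spread vertically for legibility. All medians lie between -0.052 and 0.062, and SMG1 is the farthest point to the right.

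The authors' deposited table of DESeq2 results gave 0 of the SRSF and HNRNP genes an adjusted p below 0.05: 35 of the 36 had a value, and each was 0.9999. In all, 14 genes were below 0.05 among the 30960 rows of the authors' deposited table, where DESeq2 on the recovered reads called 253 of 14275. The authors' mean signal was not a fixed multiple of the recovered reads. It was 102 for SRSF12, with 275 to 376 recovered reads per library, and 2324 for HNRNPUL2, with 2056 to 2916. So both runs may not rest on the same counts, and the reason for the different numbers called was not tested. In the authors' deposited table of DESeq2 results the smallest p-value among the SRSF and HNRNP genes was 0.191, for SRSF9. Its log2 fold change was -0.12 with a standard error of 0.095, once the sign was turned to PKI over inPKI. Counting by strand is not given in the sources used here, and 15 of the 36 genes overlap a gene on the opposite strand in GENCODE 29, among them SRSF2 (MFSD11), HNRNPAB (PHYKPL), HNRNPA2B1 (CBX3) and HNRNPU (COX20), whose reads may be mixed.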

How the data were processed

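The authors deposited CPM for 6 libraries (columns summing to 754299 to 785007), named for RSEM and TMM, and their own DESeq2 comparison. Per the file headers the latter gives for each gene a signal (the mean over libraries), a log2 fold and its error, a test score, p-values before and after adjustment, and a fold with a sign. The log2 fold and the signed one point in opposite directions in all 30960 rows, so the former is printed turned. The submitters' processing notes list, without roles, hg19 and the tools RSEM 1.3.0, STAR 2.5.2b, DESeq2 1.20.0 and cutadapt 1.14.

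Dividing each CPM value by the smallest of its column gave whole reads throughout (100%, tolerance 0.01 reads), which may be rounded estimates. Log2(CPM + 1) of genes with at least 1 CPM in at least 3 libraries went into limma 3.58.1 under R 4.3.3 (empirical Bayes, mean-variance trend, 2-sided, Benjamini-Hochberg over 14275 genes, threshold 0.05). Alternatives were pseudocounts of 0.25 and 5, no filter, a filter of 5 CPM, 2 rescalings, a replicate block, no trend, weights per sample, DESeq2 1.42.0 or edgeR 4.0.16 run on whole reads, removal of length and GC trends (lowess, span 0.3), and leaving out each library. The fit was tested on simulated counts. Positions and transcript lengths come from GENCODE 29 (GRCh38), matched by gene identifier for 30795 of the rows.

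Values in every library are given for the 8 genes of each family with the smallest p and the 3 with the highest level per kb, and 2 genes with the smallest p are named from each further list. Members and lists were chosen with earlier results of these data known. Of the 6 lists, 1 gene (KHDRBS2) was not in the table. Protein composition was not analysed here. Figures were drawn with matplotlib 3.10.9.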

Additional observations from a re-analysis of the deposited data

How the results depend on the processing

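Under all 19 alternatives 0 of the SRSF and HNRNP genes passed an adjusted p of 0.05. Those at an unadjusted p below 0.05, 1 as reported, numbered 2 with the 5 CPM filter, equal sums, the replicate block, sample weights and either trend removal, 3 with median-ratio rescaling, edgeR and DESeq2, 0 without a trend, and 0 to 4 when 1 library was left out. Over all genes, 18 were called as reported (14 higher, 4 lower), 11 with equal sums (10 and 1), 4 with no filter or without a trend, 124 with the replicate block (102 and 22), 144 with sample weights (108 and 36), 11 by edgeR (10 and 1), 253 by DESeq2 (119 higher and 134 lower, so that the balance turned), and 9 (without inPKI B) to 114 (without PKI B) with 1 library left out. Leaving out PKI A gave 37, PKI C 46 and inPKI A 11. The replicate letters were not treated as pairs: each library correlated best with the one of its own letter, but at 0.0171, 0.0138 and 0.0283 for A, B and C. The SRSF median ranged from -0.044 (without PKI B) to 0.0092 with 1 library left out. The change of SRSF1, near 0 as reported, turned above 0 with equal sums (0.00033), with the length trend removed (0.037), with both trends removed (0.038) and without any 1 of several libraries (range -0.052 to 0.022). The other 18 genes given in full kept their direction in all alternatives, though not their size: HNRNPA0 moved from -0.10 to -0.23 with either trend removal. Family sums and the HNRNP median moved by less than the spread of the libraries. Reads limit the HNRNPC copies, of which HNRNPCL1 and HNRNPCL3 lie near 1 CPM and HNRNPCL2 at or under 2 reads per library. The cause of these differences was not tested.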

Other observations

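The rows left out by the rule as pseudogenes, 85 of HNRNP genes and 1 of an SRSF gene, together held 128 ± 5.38 in inPKI against 115 ± 4.38 CPM in PKI (SD, n = 3). Of the 20 that were tested 0 passed in limma (smallest adjusted p 0.189), 17 had a log2 change below 0, and the median was -0.15, against -0.043 for the HNRNP genes themselves. Before adjustment 5 of the 20 had a p under 0.05, all lower, against 13.7% of all genes tested and 6.16% on the lower side. They were HNRNPA1P8, HNRNPUP1, HNRNPA3P3, HNRNPKP4 and HNRNPCP2. HNRNPA1P8 measured 10.4 ± 1.38 in inPKI against 7.90 ± 0.709 CPM in PKI, and HNRNPUP1 2.93 ± 0.0874 and 2.03 ± 0.127 CPM. HNRNPA1P48 held the most reads, with 33.4 CPM in inPKI. These rows share sequence with their parent genes, so how the counting divided reads between them was not tested.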
